A study of Mus musculus with 43 samples.

Results

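The dorsomedial hypothalamus (DMH) was compared with 3 neighbouring nuclei, the arcuate nucleus (ARC), the ventromedial hypothalamus (VMH) and the paraventricular nucleus (PVN), by RNA-seq of tissue collected by laser-capture microdissection. The DMH libraries were the 11 whose sample label and table column both name the dorsomedial nucleus, out of 43 labelled samples, and they were set against 30 libraries of the other nuclei. All mice were males of strain C57/BL6 aged 17 to 19 weeks and carried a congenital paternal deletion of the Snord116 snoRNA cluster (B6(Cg)-Snord116tm1.1Uta/J). The Snord116 cluster itself and libraries of other genotypes were not analysed here, so every difference below is between nuclei of deletion mice. The DMH came from 5 mice fasted for 24 hours and 6 mice fed ad libitum, the ARC from 4 fasted and 5 fed, the PVN from 5 fasted and 5 fed, and the VMH from 6 fasted and 5 fed, 12 mice in all. Each DMH library came from a different mouse, and DMH-92 stands for the DMH library of mouse 92.

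The DMH takes part in feeding, body temperature, the stress response and circadian timing. Its compact part holds neurons that make the RFamide-related peptides from Npvf. Neurons that make orexin from Hcrt, and neurons that make melanin-concentrating hormone (MCH) from Pmch, lie in the lateral hypothalamic area and reach into the dorsomedial region. Orexin promotes wakefulness and food seeking, and MCH promotes feeding and sleep.

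Levels are given in CPM, the reads of a gene scaled to a common library size (counts per M reads), and are compared between nuclei for the same gene. Depth, estimated from the step between low CPM values, was 2.65 to 8.23 M reads in DMH libraries, with a median of 3.98 M reads. Over all libraries it was 1.94 to 8.23 M reads. It stands for the reads behind the CPM and not for all reads sequenced. At the overall median depth of 4.10 M reads, a single read is worth 0.244 CPM. Differences are on the log2(CPM + 0.5) scale with their standard error (SE), from a limma fit with batch and nutritional state as covariates and mouse as a block, with Benjamini-Hochberg adjustment of the p-values over the 10077 genes tested. A gene is called higher or lower in DMH when its adjusted p is under 0.1 and it differs from the mean of the other nuclei by 1 log2 unit or more. It is called higher or lower than in each nucleus when it also differs in the same direction from ARC, from PVN and from VMH at an adjusted p under 0.1.

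The 3 peptide genes Npvf, Hcrt and Pmch and the gene Parpbp had the 4 largest differences between DMH and the other nuclei, followed by the orphan receptor gene Gpr50. The order among the 4 changed with the pseudocount and the batch: with a pseudocount of 2, Parpbp (log2 difference 5.51) lay above Pmch (5.38), Npvf (5.20) and Hcrt (5.05). Of the genes tested, 187 were higher in DMH than the mean of the other nuclei, which is 1.86% of all genes tested, and 97 were lower, which is 0.963%. With a pseudocount of 2 in place of 0.5 the counts were 96 higher and 41 lower. The median log2 difference over all genes tested was 0.02. Higher than in each nucleus were 64 genes (0.635% of all tested), and lower than in each were 14 genes (0.139%). In 7 genes (0.0695%) the lowest DMH library lay above the highest of the 30 other libraries: Npvf, Hcrt, Pmch, Parpbp, Npsr1, Rorb and Synpr. The reverse, a highest DMH library below every other library, was found for 0 genes. Of the 187 higher genes 185 had the same sign within each of the 3 batches, as had 95 of the 97 lower genes. The fed libraries DMH-92 and DMH-111 each stood apart in several genes named below. With DMH-86 they make up the 3 DMH libraries of batch 1, which also had the lowest depths in DMH. Without DMH-92 the counts were 193 higher, 102 lower, 65 higher than in each and 16 lower than in each. Without DMH-111 they were 188, 100, 62 and 12.

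**Figure D1:**
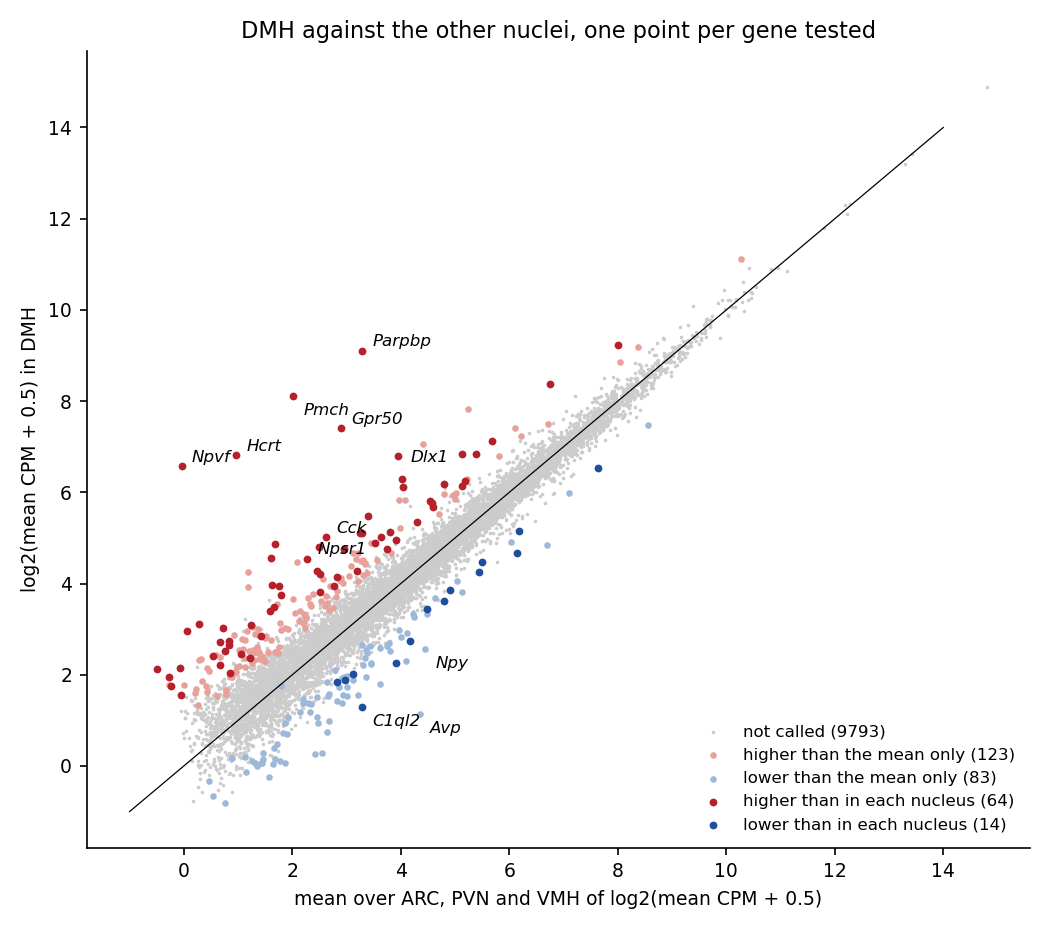
Each point is a gene tested, with its log2(mean CPM + 0.5) in DMH on the vertical axis and the mean of the same quantity over ARC, PVN and VMH on the horizontal axis. Red points are the 64 genes higher and dark blue points the 14 genes lower than in each nucleus, pale points passed against the mean alone, and the line marks equal levels. Npvf, Hcrt, Pmch and Parpbp stand farthest above the line.

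The 3 markers with which the DMH libraries were checked are small peptide precursor genes. Npvf (ENSMUSG00000029831) is at chr6:50650672-50654439 on the minus strand, Hcrt (ENSMUSG00000045471) at chr11:100761069-100762931 on the minus strand, and Pmch (ENSMUSG00000035383) at chr10:88091072-88092375 on the plus strand, in GRCm38. Their upstream sequences are shown because these genes separate the DMH from every other library and because several homeobox genes described below were higher in DMH. Each is the 250 bases before the RefSeq start in GRCm38.p6, written 5′ to 3′ on the gene's strand, at chr6:50654446-50654695, chr11:100762932-100763181 and chr10:88090822-88091071. Capitals mark the homeodomain core TAATTA, which reads the same on both strands.
Npvf: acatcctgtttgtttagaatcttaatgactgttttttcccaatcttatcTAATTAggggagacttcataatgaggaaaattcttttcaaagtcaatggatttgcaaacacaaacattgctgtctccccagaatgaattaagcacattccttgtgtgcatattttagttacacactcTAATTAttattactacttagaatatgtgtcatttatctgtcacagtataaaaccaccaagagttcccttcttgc
Hcrt: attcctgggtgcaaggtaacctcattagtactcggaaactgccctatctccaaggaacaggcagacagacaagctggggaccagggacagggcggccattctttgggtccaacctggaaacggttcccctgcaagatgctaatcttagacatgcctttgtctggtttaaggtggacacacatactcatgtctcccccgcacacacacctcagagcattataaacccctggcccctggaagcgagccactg
Pmch: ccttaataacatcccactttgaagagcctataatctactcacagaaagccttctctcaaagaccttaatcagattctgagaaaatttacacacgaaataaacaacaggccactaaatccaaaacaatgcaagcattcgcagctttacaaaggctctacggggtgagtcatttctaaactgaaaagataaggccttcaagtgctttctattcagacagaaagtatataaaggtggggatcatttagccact
The letters TAATTA occur in this window of Npvf at -201 and -74 from the start and do not occur in that of Hcrt or Pmch. They occur in 4.84% of 32851 mouse promoter windows and in 2.45% of the windows of 7194 genes tested here. Of the genes higher than in each nucleus, 48 had a window and 3 of those held the letters (6.25%). Of the genes lower than in each, 9 had a window and 0 held them. The Onecut core ATCAAT, searched on both strands (reverse complement ATTGAT), occurs in 6.72% of all windows, in 3.63% of the windows of genes tested, in 2 of the 48 (4.17%) and in 1 of the 9 (11.1%). A match is a description of letters in the window and not a binding site.

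Npvf ran from 56.5 to 225 CPM in the 11 DMH libraries, with a median of 69.7 CPM. It was at most 0.456 CPM in ARC and 0.476 CPM in PVN, and at most 6.30 CPM in VMH. Of the other 30 libraries 7 were at 0, so no library outside the DMH came near the lowest DMH library. The highest DMH value belonged to DMH-92, and the 10 others ended at 112 CPM. Npvf was higher in DMH by a log2 difference of 6.68 ± 0.28 (SE, adjusted p = 2.23e-25, limma), and by 7.37, 6.0 and 6.86 in batches 1, 2 and 3.

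Hcrt ran from 46.7 to 268 CPM in DMH, with a median of 91.9 CPM. Its highest values elsewhere were 11.9 CPM in VMH-86 and 10.9 CPM in ARC-86, 2 libraries of the mouse whose DMH library was the highest of all. The medians of the other nuclei were 0.402 CPM in ARC, 0.476 CPM in PVN and 0.873 CPM in VMH. Hcrt was higher in DMH by 6.25 ± 0.35 (SE, adjusted p = 3.54e-20, limma).

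Pmch ran from 149 to 631 CPM in DMH, with a median of 223 CPM. The VMH held an intermediate level, from 5.67 to 75.9 CPM with a median of 26.7 CPM, whereas no library of ARC or PVN passed 3.19 CPM. The difference of DMH from VMH was 3.42 on the log2 scale, against 7.55 from ARC and 7.40 from PVN, and all 11 DMH libraries lay above all VMH libraries. Against the mean of the other nuclei it was 6.12 ± 0.25 (SE, adjusted p = 8.90e-26, limma). Parpbp, which encodes a regulator of homologous recombination, followed the same order, with medians of 454 CPM in DMH, 50.3 in VMH, 2.82 in ARC and 3.35 in PVN. Parpbp overlaps Pmch by 944 bases on the opposite strand, and the use of strand in counting is not given in the sources used here, so its level cannot be told apart from that of Pmch.

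In the 11 DMH libraries Hcrt and Pmch varied together, with Pearson's r = 0.702 (2-sided permutation p = 0.0207, adjusted over 3 pairs of markers 0.0621) and Spearman's rho = 0.80 (permutation p = 0.00462, adjusted 0.0139). Without the 2 libraries farthest from the median Hcrt level r was 0.772, and with batch and state removed it was 0.658. For Npvf against Hcrt r was -0.148 (permutation p = 0.683, adjusted 0.877) and for Npvf against Pmch 0.0236 (p = 0.877, adjusted 0.877). With batch and state removed these were -0.763 and -0.323. The value for Npvf against Hcrt was then larger in size than the 0.658 for Hcrt and Pmch. All p-values above are for levels before batch and state were removed, and none was computed after. DMH-111 held the highest Pmch and DMH-86 the highest Hcrt, while DMH-92, the highest in Npvf, was the lowest in Hcrt. How much of the lateral area each capture took in was not measured, and in such bulk tissue fewer cells of a type and less RNA per cell cannot be told apart.

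**Figure D2:**
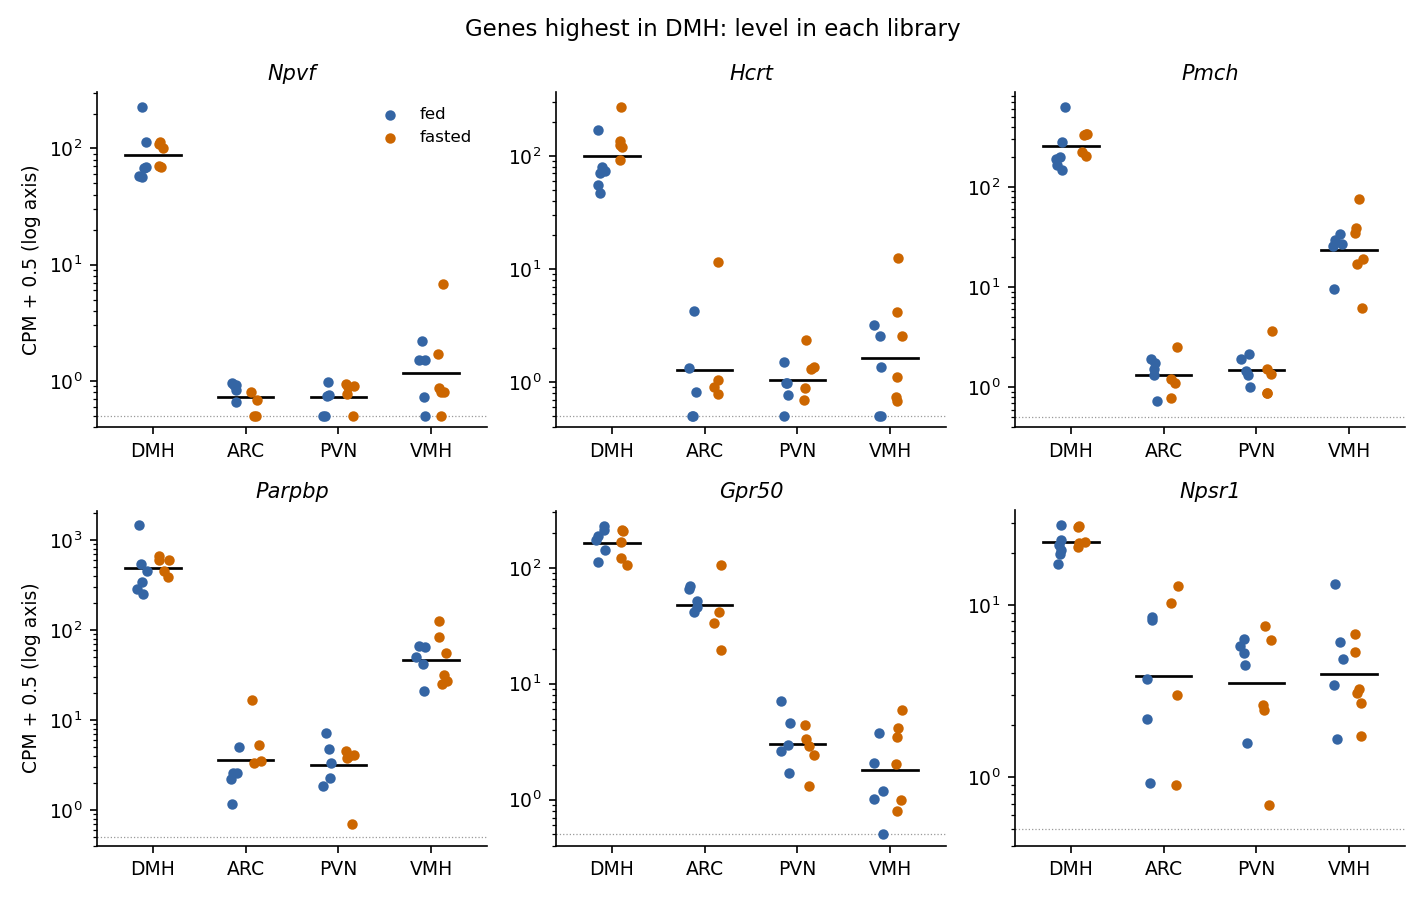
Level of 6 genes in each of the 41 libraries as CPM + 0.5 on a log axis, by nucleus, with fed libraries in blue, fasted libraries in orange and the geometric mean of each nucleus as a black line. The dotted line at the bottom marks 0 CPM. All 11 DMH libraries lie above all other libraries for Npvf, Hcrt, Pmch, Parpbp and Npsr1, and 10 of 11 do for Gpr50.

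A wider set of genes known from DMH neurons gave a mixed picture. Of 10 such genes tested, 4 were higher in DMH (Npvf, Prdm13, Cck and Brs3) and 2 were lower (Npy1r and Mc4r), where 1.86% of all genes tested were higher and 0.963% lower. The median log2 difference of the 10 was 0.67 against the mean, -0.28 against ARC, 1.15 against PVN and 1.82 against VMH. Prdm13, a zinc finger regulator expressed in DMH neurons, ran from 2.61 to 16.8 CPM in DMH and had a median of 0 CPM in ARC and VMH. It was higher by 3.07 ± 0.36 (SE, adjusted p = 3.75e-09, limma). Cck, the precursor of the satiety peptide cholecystokinin, ran from 14.1 to 51.1 CPM in DMH with a median of 32.2 CPM. Its ranges in ARC (0.358 to 34.0 CPM) and PVN (3.98 to 40.2 CPM) overlapped with it, and 3 of 11 DMH libraries lay above all others. Cck was higher by 2.88 ± 0.37 (SE, adjusted p = 5.37e-08, limma). Brs3, a bombesin-like receptor that acts on energy expenditure, was higher than the mean by 1.5 ± 0.35 and differed from ARC by only 0.25 (adjusted p = 0.78), with 12.8 ± 4.74 CPM (SD, n = 11) in DMH and 11.7 ± 5.94 (SD, n = 9) in ARC. Lepr, the leptin receptor, did not pass, with a log2 difference of 0.46 ± 0.25 (SE, adjusted p = 0.253, limma).

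Genes that mark the other nuclei were compared with their own nucleus and with the mean. Avp, the vasopressin precursor of the PVN, was at 1.7 ± 0.968 CPM (SD, n = 11) in DMH and 800 ± 343 CPM (SD, n = 10) in PVN. Npy, the orexigenic peptide of the ARC, was between 0.832 and 6.12 CPM in 10 DMH libraries and at 33.4 CPM in DMH-92, against 194 to 1226 CPM in ARC. Fezf1, a zinc finger factor of VMH neurons, was at 6.63 ± 2.197 CPM in DMH and 219 ± 30.6 CPM (SD, n = 11 each) in VMH. Of 12 VMH neuron genes 5 were lower in DMH and 0 higher, with a median of -0.87 against the mean and of -2.38 against VMH. Of 7 PVN neuron genes 1 was lower (Avp) and 1 higher (Nrn1), with a median of 0.01 against the mean and of -2.79 against PVN. Of 7 ARC neuron genes 3 were lower (Npy, Crabp1 and Rxfp1) and 4 higher (Bsx, Th, Gsx1 and Isl1), with a median of 1.48 against the mean and of -1.39 against ARC. The counts of these 3 lists stand beside 1.86% higher and 0.963% lower of all genes tested. The 4 that were higher encode 3 homeobox factors and, for Th, tyrosine hydroxylase, the first enzyme of dopamine synthesis.

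**Figure D3:**
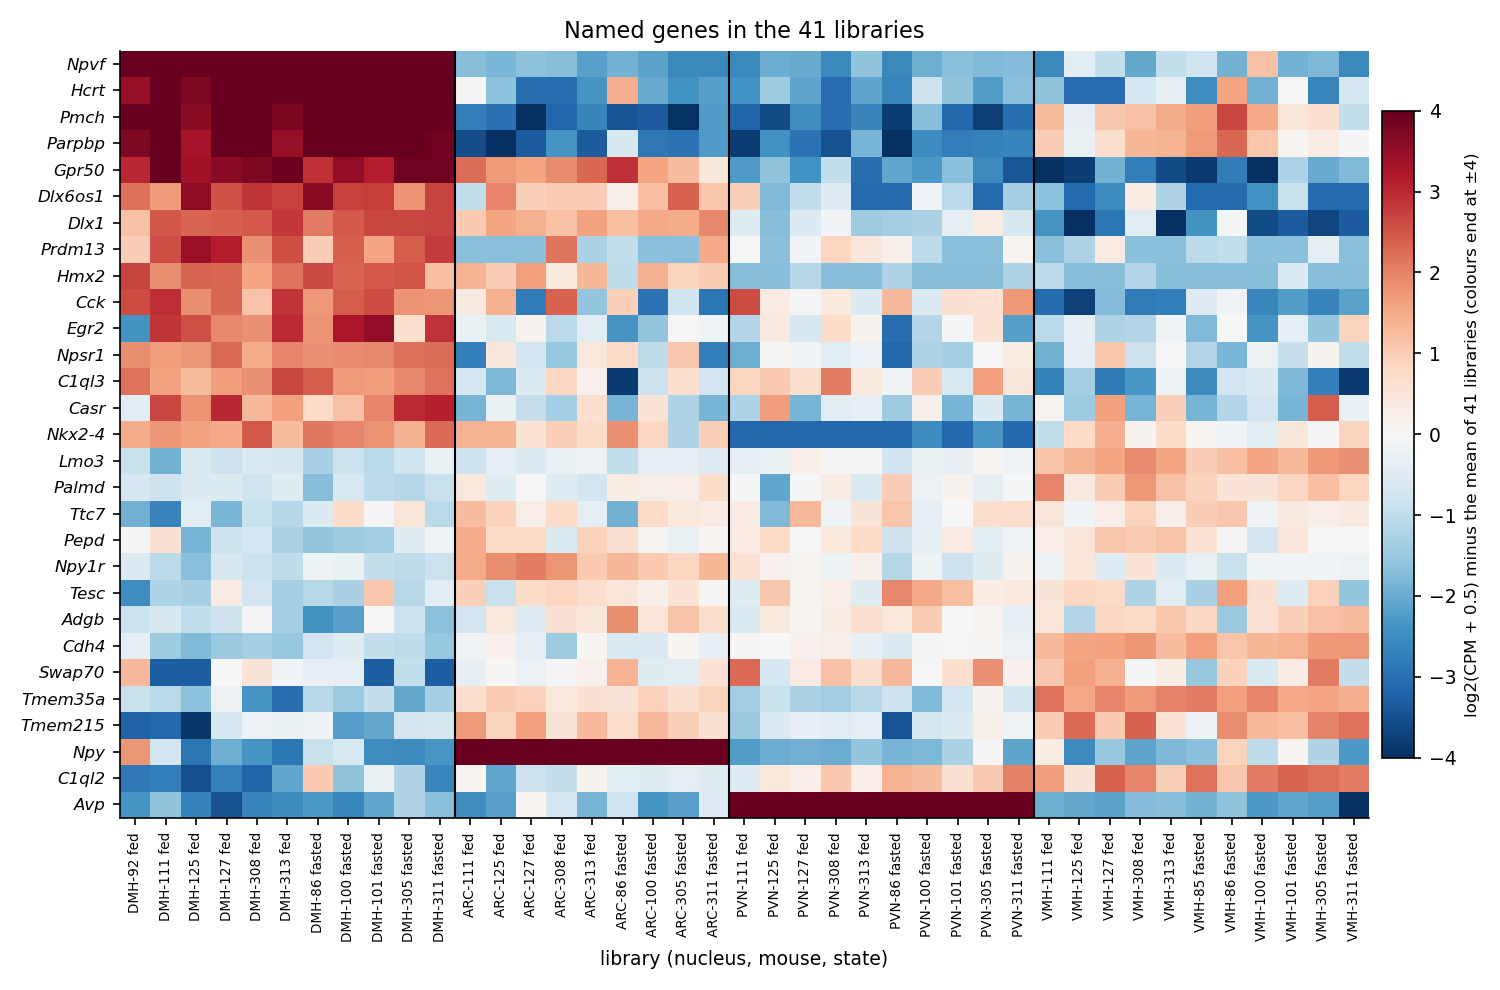
Log2(CPM + 0.5) of 29 genes named by rule in each of the 41 libraries, as the difference from the gene's mean over all libraries, with the colours ending at 4 log2 units either way. Rows are ordered by the difference of DMH from the mean of the other nuclei, from Npvf at the top to Avp at the bottom, and black lines part the nuclei. Npy and Avp are low in DMH through a high level in ARC and PVN alone, and DMH-92 departs from the other DMH libraries in Egr2, Dlx1, Swap70 and Npy.

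The receptor genes that marked DMH included several for peptides. Gpr50, an orphan relative of the melatonin receptors found in DMH neurons and in tanycytes, ran from 105 to 229 CPM in DMH with a median of 172 CPM, and from 18.9 to 106 CPM in ARC. The median was 2.42 CPM in PVN and 1.53 CPM in VMH, so the order was DMH, ARC and then the other two. Gpr50 was higher than the mean by 4.70 ± 0.27 (SE, adjusted p = 3.39e-20, limma) and higher than in ARC by 1.79 (adjusted p = 8.1e-05). Npsr1, the receptor of neuropeptide S, a peptide that promotes arousal, ran from 16.8 to 28.7 CPM in DMH with a median of 22.2 CPM. No other library passed 12.8 CPM, and the difference was 2.65 ± 0.31 (SE, adjusted p = 4.17e-09, limma) with nearly the same size against ARC (2.64), PVN (2.78) and VMH (2.53).

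Of 46 neuropeptide and hormone receptor genes tested, 6 were higher and 8 lower, with a median of 0.00, against 1.86% higher, 0.963% lower and a median of 0.02 over all genes tested. Higher than in each nucleus were Npsr1, Npbwr1, the receptor of neuropeptides B and W (1.94 ± 0.27), Trhr, the thyrotropin-releasing hormone receptor (1.56 ± 0.21), and Oprm1, the mu opioid receptor (1.15 ± 0.18). Tacr1, the substance P receptor, and Brs3 were higher than the mean and did not pass the test against ARC. The 8 lower ones were Npy1r, Mc3r, Mc4r, Cckbr, Sstr1, Sstr3, Qrfpr and Rxfp1. Npy1r, a receptor of neuropeptide Y, ran from 9.77 to 27.9 CPM in DMH and from 58.1 to 132 CPM in ARC, and was the only one of the 8 lower than in each nucleus (-1.19 ± 0.15, SE). Mc4r, the melanocortin 4 receptor, was low through a high level in PVN (10.6 ± 4.43 CPM, SD, n = 10, against 2.29 ± 2.54, SD, n = 11, in DMH), and it differed from ARC by -0.05 and from VMH by -0.61, neither past the threshold. Its call against the mean was lost without DMH-127 (-0.81, adjusted p = 0.117, limma). Over the alternatives the difference of Mc4r from the mean ran from -2.13 in batch 1 alone to -0.24 in fasted libraries alone. Sstr3 and Cckbr were highest in VMH, with 37.1 ± 15.3 CPM and 33.5 ± 10.2 CPM (SD, n = 11), against 3.37 ± 3.06 CPM and 3.21 ± 2.72 CPM in DMH.

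Among 33 genes for monoamine, acetylcholine and purine receptors, 6 were higher and 1 lower, with a median of 0.12, where 1.86% of all genes tested were higher and 0.963% lower. Htr2c, a serotonin receptor through which appetite is reduced, was at 72.2 ± 15.5 CPM (SD, n = 11) in DMH and at 19.9 ± 5.15 CPM (SD, n = 9) in ARC, with PVN between them at 47.9 ± 14.3 CPM (SD, n = 10). Its difference from the mean was 1.40 ± 0.14 (SE, adjusted p = 1.55e-11, limma). Htr3a (1.53 ± 0.34), the nicotinic subunit gene Chrnb3 (1.60 ± 0.39) and the adrenergic receptor gene Adra2a (1.01 ± 0.20) were also higher than in each nucleus, the first 2 at means under 3 CPM. The nicotinic subunit gene Chrna3 (1.46 ± 0.32) and the muscarinic receptor gene Chrm3 (1.26 ± 0.37) were higher than the mean and did not pass the test against VMH, nor did Chrm3 against ARC. Hrh1, a histamine receptor gene, was lower (-1.08 ± 0.18) and did not pass against ARC (-0.40). Casr, the calcium-sensing receptor, was higher than in each nucleus by 2.54 ± 0.40 and ranged from 0.87 CPM in DMH-92 to 15.3 CPM.

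Genes of GABA neurons were higher in DMH than in PVN and VMH, and several of them did not pass the test against ARC. Gad1, which encodes a GABA-synthesising enzyme, ran from 173 to 286 CPM in DMH and from 148 to 253 CPM in ARC, whereas PVN ended at 34.6 CPM and VMH at 17.2 CPM. The ranges of DMH and ARC overlapped and their log2 difference was 0.10 (adjusted p = 0.77), against 3.51 from PVN and 4.36 from VMH. Slc32a1, the vesicular GABA transporter, ran from 85.4 to 168 CPM in DMH and from 84.9 to 122 CPM in ARC, with a difference of 0.34 (adjusted p = 0.42), and it ended at 22.4 CPM in PVN and 13.2 CPM in VMH. Slc17a6, the vesicular glutamate transporter of hypothalamic neurons, was higher in PVN and VMH than in DMH and lowest in ARC, with 188 ± 50.9 CPM (SD, n = 11) in DMH, 118 ± 37.4 (SD, n = 9) in ARC, 358 ± 64.0 (SD, n = 10) in PVN and 581 ± 135 (SD, n = 11) in VMH. Its difference from the mean, -0.61 ± 0.07 (SE, adjusted p = 3.64e-09, limma), was under the size called. Of 10 genes of zona incerta and lateral GABA neurons, 9 were higher and 0 lower (1.86% and 0.963% of all genes tested), with medians of 1.96 against the mean and 0.48 against ARC. Of these, 2 were higher than in each nucleus, Dlx1 among them.

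**Figure D4:**
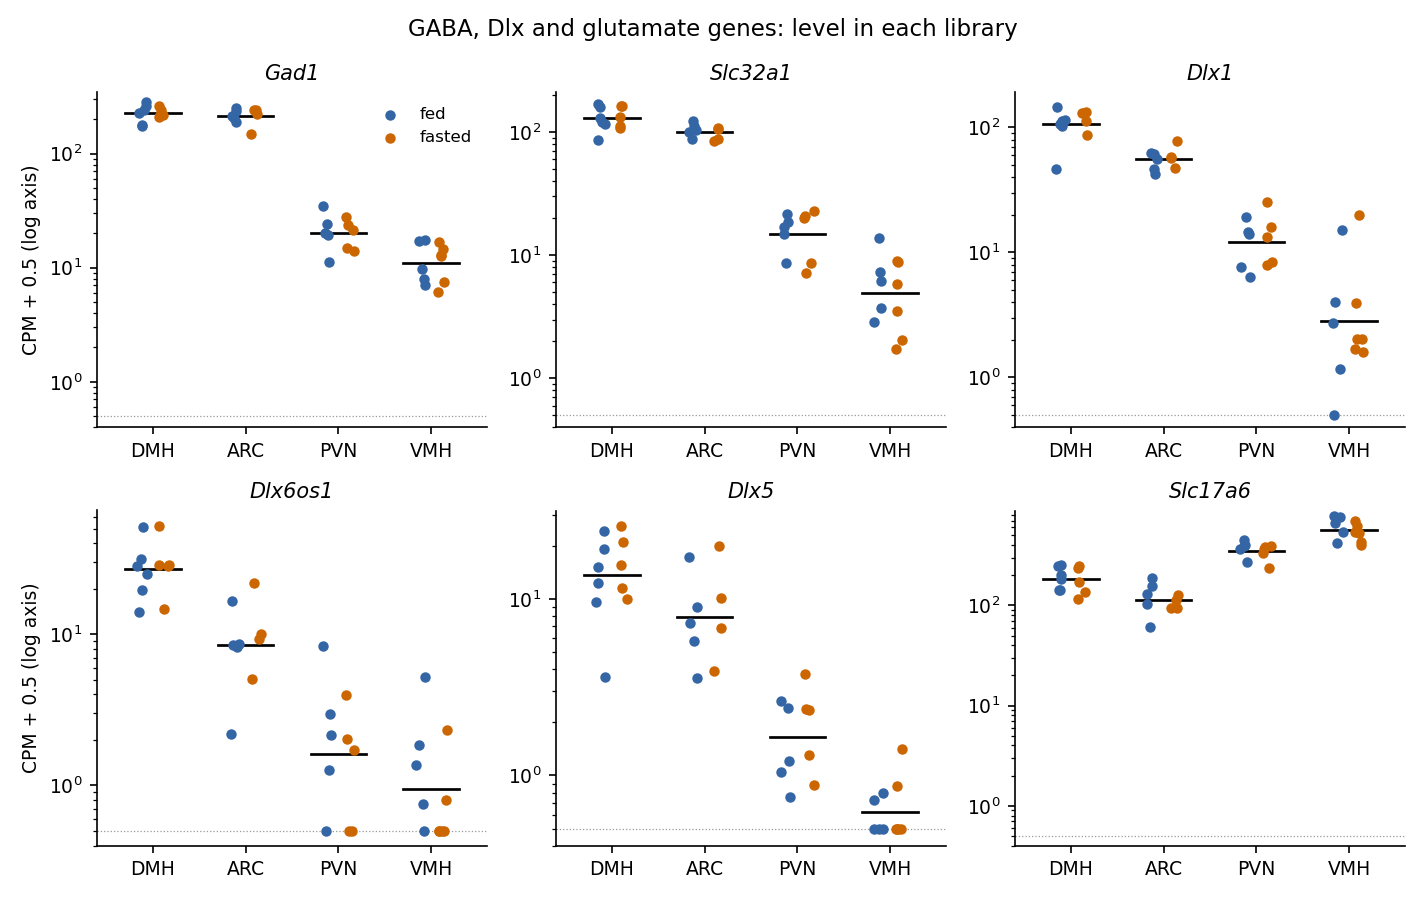
Level of 6 genes in each of the 41 libraries as CPM + 0.5 on a log axis, drawn as in the plot of marker levels, with the geometric mean of each nucleus as a black line. Gad1 and Slc32a1 are at like levels in DMH and ARC and low in PVN and VMH, the medians of Dlx1, Dlx6os1 and Dlx5 fall from DMH through ARC to the other nuclei, with the difference of Dlx5 from ARC not past the threshold, and Slc17a6 is highest in VMH.

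The Dlx genes encode homeobox factors of GABA neurons. Dlx1 ran from 46.1 to 144 CPM in DMH with a median of 112 CPM, and 10 of 11 DMH libraries lay above all other libraries, the exception being DMH-92. The medians fell from 56.7 CPM in ARC to 13.1 CPM in PVN and 1.55 CPM in VMH. Dlx1 was higher than the mean by 3.12 ± 0.28 (SE, adjusted p = 1.99e-12, limma) and higher than in ARC by 0.96 (adjusted p = 0.067). Its antisense partner Dlx1as (2.28 ± 0.28) overlaps it by 5869 bases. Dlx6os1, an antisense RNA that overlaps Dlx6 by 5235 bases, was higher by 3.53 ± 0.36 and had medians of 28.0 CPM in DMH and 8.09 CPM in ARC. Dlx5 (2.76 ± 0.29) and Dlx6 (1.93 ± 0.30) were higher than the mean and differed from ARC by 0.75 and 0.62, neither past the threshold. Reads of these antisense pairs cannot be told apart without the use of strand.

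Other homeobox genes followed. Of 47 homeobox genes outside the LIM group, 12 were higher and 1 was lower, with a median of 0.25, and 6 of the 12 were higher than in each nucleus. Of all genes tested 1.86% were higher, 0.963% lower and 0.635% higher than in each. Hmx2 (2.90 ± 0.26), a hypothalamic developmental factor, was at 7.29 ± 2.17 CPM (SD, n = 11) in DMH, 2.89 ± 1.31 (SD, n = 9) in ARC and under 0.61 CPM in every PVN and VMH library. Hmx2 overlaps Fgfr2 on the opposite strand. Nkx2-4 (2.41 ± 0.25) was at 15.1 ± 4.25 CPM (SD, n = 11) in DMH, 8.28 ± 3.82 (SD, n = 9) in ARC, 5.35 ± 2.77 (SD, n = 11) in VMH and at most 0.382 CPM in PVN. Its ranges in ARC and VMH overlapped with that in DMH, and the differences of Nkx2-4 were 0.95 from ARC, 1.51 from VMH and 4.78 from PVN. Onecut1 (1.99 ± 0.39) and Onecut3 (2.08 ± 0.35) were higher than in each nucleus at means of 5.25 and 8.07 CPM. Bsx (3.10 ± 0.26), a factor of ARC and DMH neurons, differed from ARC by 0.03, with 18.6 ± 8.55 CPM (SD, n = 11) in DMH and 19.3 ± 12.9 CPM (SD, n = 9) in ARC.

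Of 12 nuclear receptor genes, 3 were higher and 0 lower, and the shares of all genes tested were 1.86% and 0.963%. Rorb, an orphan receptor of the ROR family with roles in neuronal identity and circadian timing, ran from 208 to 416 CPM in DMH with a median of 345 CPM. Every other library lay at or under 166 CPM, and the difference was 1.65 ± 0.08 (SE, adjusted p = 2.82e-22, limma). Nr2f2 (1.26 ± 0.18) was at 62.0 ± 15.8 CPM in DMH and higher still in VMH at 114 ± 22.6 CPM (SD, n = 11 each), and it was low in ARC. Nr2f1 (1.09 ± 0.22) was low in ARC alone. Of 40 Sox, Fox, Tbx and Zic genes 3 were higher (Sox2, Foxp2 and Foxd2), and 0 of 21 bHLH genes were called, where 2.82% of all genes tested were called in either direction.

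Some genes of the synapse and of signalling were higher than in each nucleus. Synpr, which encodes the synaptic vesicle protein synaptoporin, ran from 38.7 to 114 CPM in DMH with a median of 65.7 CPM. No other library passed 35.7 CPM, and the difference was 2.15 ± 0.19 (SE, adjusted p = 1.91e-12, limma). Rgs8, a regulator of G protein signalling, was at 139 ± 22.5 CPM in DMH (SD, n = 11) and 22.0 ± 8.001 CPM in ARC (SD, n = 9), with PVN and VMH between them, and differed by 1.51 ± 0.13. Nxph1 (1.53 ± 0.15), a neurexin ligand, and Nrxn3 (1.24 ± 0.07), a neurexin, were both higher than in each nucleus. C1ql3, a secreted synaptic organiser, was higher by 2.60 ± 0.32, and its relative C1ql2 had the largest negative difference among the genes lower than in each nucleus. Of 59 potassium channel genes 2 were higher (Kcng3 and Kcnt2) and 2 lower (Kcnmb4 and Kcnj12), and of 42 synaptotagmin and vesicle genes 2 were higher, against 1.86% higher and 0.963% lower of all genes tested. Of 153 solute carrier genes 2 were higher, Slc32a1 and Slco4c1, and the call of Slco4c1 was lost without DMH-111 (1.11, adjusted p = 0.10, limma). Of 60 genes of cytosolic ribosomal proteins 0 were called. At an adjusted p under 0.1 with no minimum size, 18 of the ribosomal protein genes were lower, where 6.93% of all genes tested were. Their medians were -0.17 against the mean, -0.47 against ARC, -0.19 against PVN and 0.11 against VMH.

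Egr2 was the only one of 6 immediate early genes that was called, where 2.82% of all genes tested were called in either direction. This zinc finger factor, induced by neuronal activity and also used by glia, had a median of 23.5 CPM in DMH and at most 7.22 CPM elsewhere, with a difference of 2.75 ± 0.39 (SE, adjusted p = 3.87e-07, limma). It was not high in every DMH library: DMH-92 was at 0.290 CPM and DMH-305 at 6.03 CPM, against 13.97 to 48.4 CPM in the other 9. Egr1 differed by 0.57 and Npas4 by 0.35, both under the size called.

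Few genes were lower in DMH than in each of the other nuclei. C1ql2 had a median of 0.432 CPM in DMH, 3.62 CPM in ARC, 9.86 CPM in PVN and 23.2 CPM in VMH. DMH-86 was the highest DMH library at 11.3 CPM, and 6 of 11 DMH libraries lay below all others. The difference was -2.59 ± 0.28 (SE, adjusted p = 7.04e-10, limma).

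Cdh4 (-1.51 ± 0.13), a cadherin, was at 24.9 ± 8.36 CPM (SD, n = 11) in DMH and 43.9 ± 13.1 CPM (SD, n = 9) in ARC, the next lowest nucleus. Lmo3 (-1.11 ± 0.07), a LIM-only cofactor, was at 92.2 ± 24.3 CPM (SD, n = 11) in DMH and 117 ± 19.04 CPM (SD, n = 9) in ARC, so the gap to the next nucleus was small, and most of its difference came from VMH at 462 ± 94.0 CPM (SD, n = 11). Swap70 (-1.65), Adgb (-1.44), Tesc (-1.21), Npy1r (-1.19), Pepd (-1.16), Ttc7 (-1.13), Palmd (-1.12), Fstl4 (-1.10), Kctd4 (-1.09) and Tgfbr3 (-1.03) were also lower than in each nucleus. Tgfbr3 was at -1.55 from the mean in fasted libraries alone and at -0.51 in fed libraries alone. Ttc7 was at -2.08 in batch 1 alone and at -0.38 in fasted libraries alone. Of the 97 genes lower than the mean, 44 had their highest mean in VMH, 29 in ARC and 24 in PVN. The same split over all genes tested was not counted. Tmem215 (-2.10 ± 0.31) and Tmem35a (-1.98 ± 0.16), both membrane protein genes, were high in VMH and ARC and did not pass the test between DMH and PVN.

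Many genes higher than the mean did not pass the test against each neighbour. Of the 187, 70 did not pass against ARC, 53 against VMH and 33 against PVN at an adjusted p under 0.1. A further 3 were lower in DMH than in ARC, 2 lower than in VMH and 4 lower than in PVN. Counts over all genes against single nuclei used the same threshold plus a minimum size of 1 log2 unit. By this rule 342 genes were higher in DMH than in ARC (3.39% of all tested) and 222 lower (2.2%). Against PVN 381 were higher (3.78%) and 257 lower (2.55%), and against VMH 402 were higher (3.99%) and 347 lower (3.44%). Among the 187 were 22 predicted genes named Gm and a number, and the share of such genes among all genes tested was not counted. Of these, 7 overlap Gm26870 on the opposite strand, so their reads cannot be told apart without the use of strand. They and the pair Gm10800 and Gm10801 may hold repeat-like sequence with near-identical copies. This was not checked here, so their counts are uncertain. Gm10800 ran from 328 CPM in DMH-92 to 3273 CPM in DMH and from 59.8 to 3529 CPM in the other libraries, so the ranges overlapped, and it was called against the mean at 1.15 ± 0.37 (SE, adjusted p = 0.0334, limma).

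**Figure D5:**
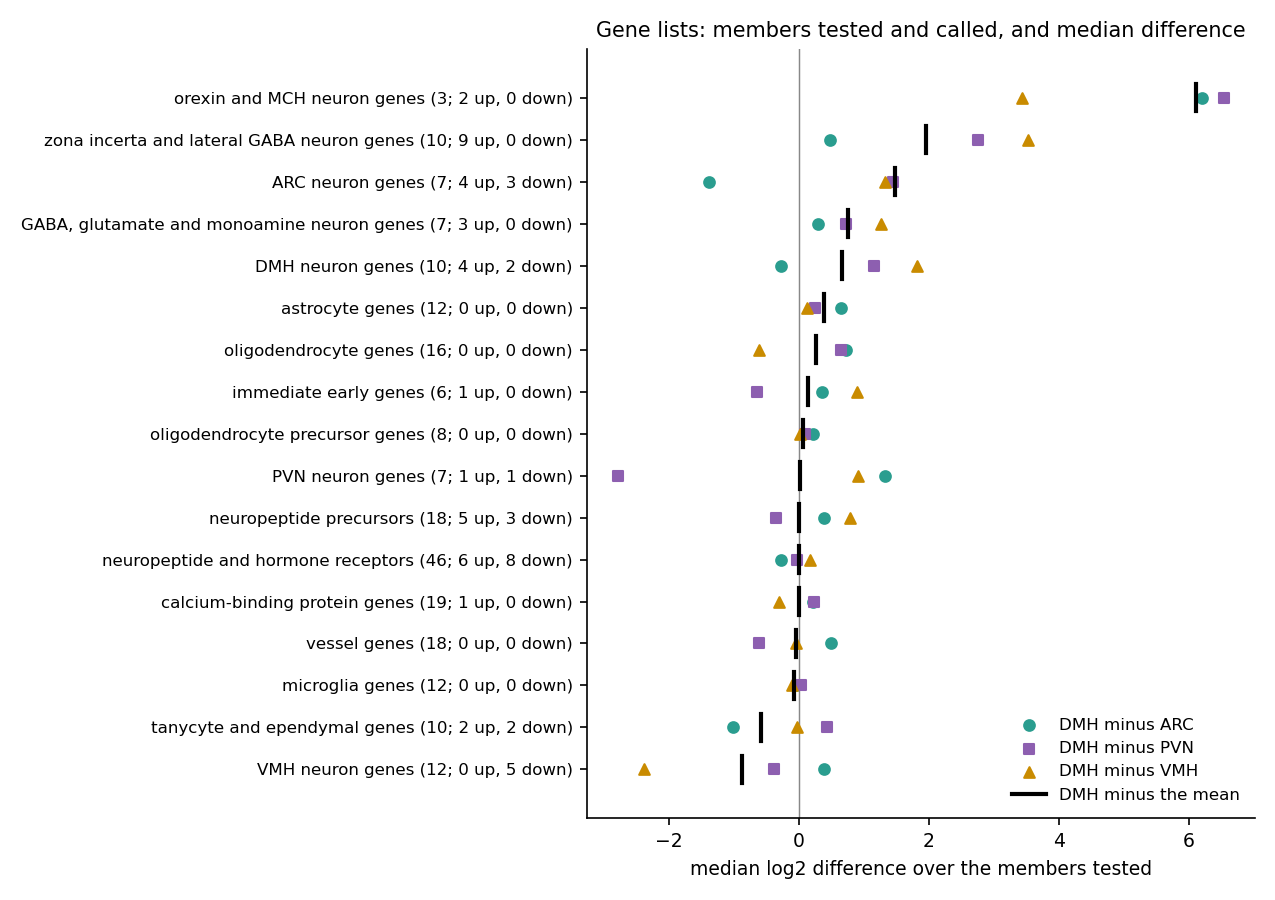
Median log2 difference over the members tested of each of 17 gene lists, for DMH against the mean of the other nuclei (black bars) and against ARC, PVN and VMH (coloured symbols). The numbers beside each name give the members tested and how many were higher and lower in DMH. The GABA neuron list lies far above 0 against PVN and VMH and nearest to 0 against ARC, and the VMH neuron list is lowest against VMH.

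Markers of glia and vessels were also counted. Of 12 astrocyte genes 0 were called at the size used and 7 were higher at an adjusted p under 0.1 with no minimum size, where 8.42% of all genes tested were higher. Their median difference was 0.38 and their summed level was 1502 to 2193 CPM in DMH, 1016 to 1320 in ARC, 1212 to 1695 in PVN and 1494 to 1920 in VMH. Of 16 oligodendrocyte genes 0 were called, and their summed level was 619 to 1934 CPM in DMH, 386 to 1048 in ARC, 484 to 824 in PVN and 1417 to 2120 in VMH. Microglia genes (12), oligodendrocyte precursor genes (8) and vessel genes (18) also gave 0 calls. Of 10 tanycyte and ependymal genes 2 were higher (Gpr50 and Ppp1r1b) and 2 lower (Lhx2 and Fndc3c1), against 1.86% and 0.963% of all genes tested, with a median of -0.59, and Crym and Foxj1, which mark tanycytes and ependymal cells, had means of 1.83 and 1.99 CPM in DMH. The call of Fndc3c1 was lost without any one of DMH-86, DMH-92, DMH-101 and DMH-127. Lhx2 was at -1.99 from the mean in fasted libraries alone and at -0.54 in fed libraries alone. Among the list members in the deposited values, none was at 0 in every DMH library. Nearly all deposited genes passed the expression filter (10077 of 10127), so this says little about which cell types were present. Listed genes without deposited values could not be checked, and of 21 listed tanycyte and ependymal genes 10 had values. The part of these cell types in the differences above was not tested.

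The differences between DMH and the other nuclei were then compared between fasted and fed mice. The difference by state passed the threshold for 0 genes in the limma fit, and the smallest adjusted p was 0.515. An unadjusted p under 0.05 was found for 535 genes (5.31% of all tested). The 3 genes with the smallest p were Ttc39b (-0.66 ± 0.15), Pop5 (1.14 ± 0.27) and Lrrc14 (-1.39 ± 0.34). For Npvf, Hcrt and Pmch the differences by state were 0.11 ± 0.58, 0.41 ± 0.73 and 0.38 ± 0.51, each with an adjusted p of 0.997.

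Within the DMH libraries alone, 1 of 9751 genes (0.0103%) differed between fasted and fed mice, Hsph1, a heat shock protein gene, which fell by 0.82 (SE 0.11, adjusted p = 0.0032, limma) and by 0.77 without the batch covariate, where it did not pass (adjusted p = 0.277). An unadjusted p under 0.05 was found for 646 genes (6.62%). Hcrt was 91.9, 121, 124.6, 134 and 268 CPM in the 5 fasted libraries. In the 6 fed libraries it was 46.7, 54.5, 69.6, 73.6, 79.8 and 169 CPM. All but DMH-111 of the fed libraries lay below all fasted ones, and the log2 difference was 0.97 ± 0.24 with an unadjusted p of 0.000697, which did not pass over all genes (adjusted p = 0.497, limma). Npvf (0.17 ± 0.25) and Pmch (0.34 ± 0.23) did not pass either, and their fasted and fed libraries overlapped.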

How the data were processed

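Nuclei were laser-captured from 20-µm sections, and 2 ng of RNA per nucleus was amplified by SPIA with a NuGEN kit. Capture and library preparation were done in 3 batches. Per the submitters' processing notes and the study's methods, the authors mapped reads to GRCm38 with TopHat2 2.0.11, used edgeR and limma, and left out outlier libraries, which can lower the spread between replicates. Cufflinks 2.2.1 and CASAVA 1.7 are also named there. The deposited values are CPM (library-scaled read counts) for 10127 genes, of which 9891 were given symbols and coordinates from GENCODE M21. An identifier range with 6725 annotated genes was not analysed here, and CPM summed to between 554896 and 689010 per library. Of 43 columns 41 matched a label. The other 2 are named as ARC of mice 85 and 92, for which the labels list PVN samples but no ARC sample, and were not used. DMH-92 is from mouse 92, and its own column and label match by name. Depth was read from low values, of which 97.4% to 98.3% were whole reads within 0.05 reads. Whole reads were not recovered for the other values, and no count test was run. Amplified reads are not independent molecules.

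Genes with at least 1 CPM in at least 9 libraries were tested with limma 3.58.1 in R 4.3.3 (lmFit, eBayes with a trend) on log2(CPM + 0.5), which understates folds of low genes. Each other nucleus had equal weight. Same-numbered libraries came from the same mouse, so mouse was a random block, and the correlation between libraries of a mouse was -0.0037. DMH libraries alone were fitted with batch as a covariate, on genes with at least 1 CPM in at least 5 libraries. The fits were tested on simulated data. Alternatives were other pseudocounts, filters and blocks, single states and batches, and leaving out each library. Correlations used 100000 permutations.

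Genes named were the 3 markers, the 15 largest positive differences (at least 5 CPM in DMH) and 10 largest negative ones (at least 5 CPM in each other nucleus) among genes that differ from each nucleus, the 5 largest negative ones from the mean, the 3 smallest p for state, and called members of the lists. Genes named outside this rule were chosen after their values were seen. Members and lists were chosen with earlier results of these data known. A few genes that meet the rule are not reported here. No set test was made. A promoter window is the 250 bases before a RefSeq start.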

Additional observations from a re-analysis of the deposited data

Results flagged for a closer look

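In 66 groups examined (the fed and the fasted DMH libraries for each of 33 genes named by rule), 10 held a library far from the rest of its group by Dixon's test at the 95% level. The test used CPM without the log2 scale and pooled the batches. For normally distributed values chance flags about 1 in 20 groups, which is 3.3 here. CPM need not be so distributed, so these counts do not measure an excess over chance. Of the 10 flags, 4 were in DMH-111, 3 in DMH-92 and 1 in DMH-86, the 3 DMH libraries of batch 1. They also had the lowest depths in DMH (2.93, 3.45 and 2.65 M reads). The part of batch and depth in the flags was not tested. Of the 4 in DMH-111, those of Pmch and Parpbp are not independent, since the genes overlap and their levels cannot be told apart.

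Among fed DMH libraries, DMH-92 was highest in Npvf at 225.1 CPM (the others 56.46 to 112.2), in Npy at 33.36 CPM (0.832 to 5.454) and in Cdh4 at 40.9 CPM (15.38 to 21.02). DMH-111 was highest in Pmch at 630.9 CPM (148.6 to 280.4), in Parpbp at 1464 CPM (254.8 to 550.5) and in Hcrt at 169.1 CPM (46.7 to 79.84), and lowest in Lmo3 at 43.29 CPM (the others 87.89 to 110.8). DMH-308 was highest in Nkx2-4 at 23.44 CPM (9.832 to 14.32).

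Among fasted DMH libraries, DMH-86 was highest in Hcrt at 268 CPM (the others 91.9 to 134.3) and DMH-101 was highest in Tesc at 12.11 CPM (1.947 to 3.886). The difference between DMH and the other nuclei depended on state past the threshold for 0 genes (limma), with 535 at an unadjusted p under 0.05.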

How the results depend on the processing

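Without the replicate block the counts were 187 higher, 97 lower, 64 higher than in each nucleus and 14 lower than in each, as with mouse as a random block, and with mouse as a fixed block they were 190, 106, 63 and 17. A pseudocount of 2 gave 96 higher, 41 lower and 9 lower than in each. Fed libraries alone gave 38 higher and 7 lower than in each, and fasted libraries alone gave 102 higher than the mean, 23 higher than in each and 7 lower than in each. Batch 1 alone gave 26 higher, 18 lower, 4 higher than in each and 0 lower than in each, batch 2 alone gave 29 higher and 6 lower than in each, and batch 3 alone gave 123 higher, 31 higher than in each and 9 lower than in each, with fewer libraries in each such fit. In batch 1 alone the signs of Gpr179 (-0.05) and Sprr1a (-0.15) were reversed. Of the lower genes, Shisa2 was at 1.03 in batch 1, against -2.48 and -2.0 in batches 2 and 3, and Hmcn2 at 0.06, against -1.66 and -1.21. Leaving out each library in turn gave 178 to 198 higher, 91 to 113 lower, 57 to 67 higher than in each, 10 to 17 lower than in each and 0 differences by state. The alternatives for fasted against fed in DMH were chosen after seeing the data: without the batch covariate 0 genes passed (Hsph1 at a difference of -0.77, against -0.82 with it, and an adjusted p of 0.277, limma), and leaving out each library gave 1 to 2 genes. Genes at a few CPM rest on a few reads, since 1 read is worth 0.244 CPM at the median depth.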
